A study of Cavia porcellus with 72 samples.

Results

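Of 126534 windows of 100 bases listed with a methylation difference in the hippocampus of at least 1 generation, 14649 (11.6%) were listed in at least 2 of the 3 generations. These are called recurrent windows here. They were selected on the readout: each generation's table lists only windows in which the authors' sGC minus control difference was 2 percentage points or more in either direction, and a window was taken as recurrent when its scaffold and start stood in 2 or 3 of the tables. The rule took no account of the direction of the difference or of its significance, so that a recurrent window may differ in opposite directions in its generations. The sizes of the overlaps are therefore given as a description, with no test. Of the recurrent windows, 13661 stood in exactly 2 tables and 988 in all 3, and the 111885 windows just outside the rule stood in 1.

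The tissue came from female Dunkin-Hartley guinea pigs on postnatal day 40. Pregnant F0 animals received either saline (control) or the synthetic glucocorticoid betamethasone (sGC, 1 mg/kg) in 3 courses, on gestational days 40 and 41, 50 and 51, and 60 and 61, and the F2 and F3 litters were sired by F1 and F2 males mated with non-experimental females. Bisulfite capture covered 6 control and 6 sGC animals in each generation by their labels, where the study's methods give 7 and 5 in F3. F1 sGC animals were exposed as fetuses, whereas F2 and F3 sGC animals were not. The latter descend through the paternal line from male F1 offspring of the treated F0 animals, not from the females sampled. The F1 sires of the F2 sGC animals had themselves been exposed as fetuses, whereas the F2 sires of the F3 animals had not.

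DNA methylation in vertebrates lies mainly on the cytosine of CpG pairs, and is usually low at active promoters and variable at enhancers, the distal elements that help to set a gene's transcription. Methylation patterns are largely erased and rebuilt in the germ line and the early embryo, which is why marks found at the same place in successive generations are of interest. The capture probes were designed for promoters, including sites of engaged RNA polymerase II, and for regions carrying H3K4me1, a histone mark of enhancers. Whether each listed window lies within a captured element was not examined here.

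The largest class of recurrent windows was shared by F1 and F3 alone, with 5589 windows, followed by F1 and F2 alone with 4316 and F2 and F3 alone with 3756. As a share of each table, 10893 of 53723 F1 windows (20.3%), 9060 of 41660 F2 windows (21.7%) and 10333 of 46788 F3 windows (22.1%) were recurrent. The windows in all 3 tables made up 1.84% of the F1 table, 2.37% of the F2 table and 2.11% of the F3 table. About 4 in 5 windows listed in a generation were thus listed in no other, as the counts by set of generations show.

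**Figure D1:**
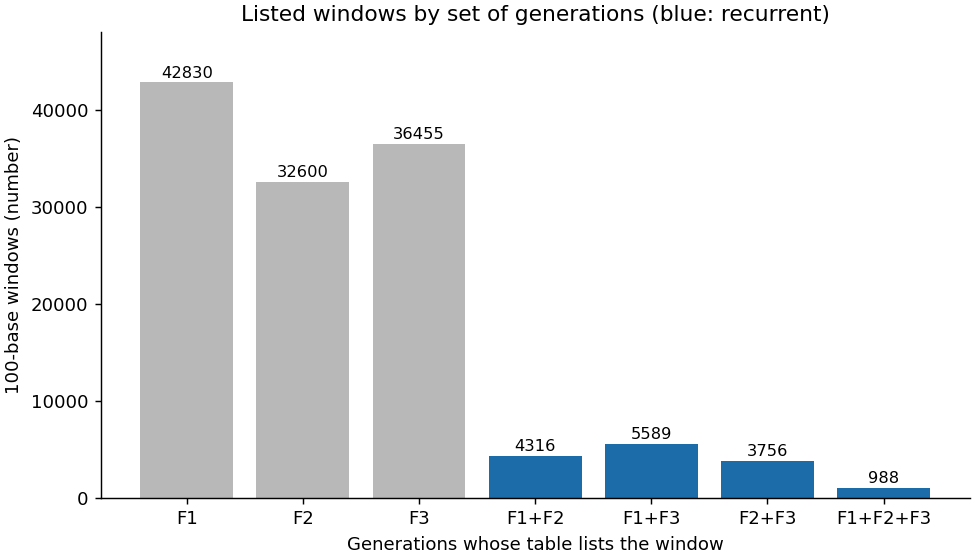
Number of 100-base windows (y axis) by the set of generations whose table lists them (x axis), with windows of a single table in grey and recurrent windows in blue. The single-table bars reach 42830, 32600 and 36455 windows, the pairs lie between 3756 and 5589, and 988 windows stood in all 3 tables.

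The F2 tables covered less of the assembly than the others, and this touches every pair with F2. In cavPor3 the sequence is divided into numbered scaffolds, and the F2 windows lay on scaffolds 0 to 86 alone, 87 in all, whereas F1 windows lay on 910 scaffolds and F3 windows on 970. The F2 table of single CpGs had the same limit. The 996 scaffolds without F2 windows held 12866 F1 windows and 12107 F3 windows, and the 1714 recurrent windows there (11.7% of all recurrent windows) could only be of the F1 and F3 kind. Whether the F2 animals differed there cannot be told from these tables.

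On the 87 scaffolds present in all 3 tables, the order of the pairs changed. F1 and F2 shared 5304 windows, which were 12.98% of the F1 and 12.73% of the F2 windows there. F1 and F3 shared 4863 windows, 11.90% of the F1 and 14.02% of the F3 windows. F2 and F3 shared 4744 windows, 11.39% of the F2 and 13.68% of the F3 windows. The shares of a table thus lay between 11.39% and 14.02% for every pair. The pair F1 and F3, which are separated by a further generation, gave the highest of the 6 shares, 14.02%, and one of the lower ones, 11.90%. On the scaffolds without F2 windows, 13.3% of the F1 and 14.2% of the F3 windows were shared.

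The windows shared by a pair of generations had a larger share in the remaining table than either table had as a whole. On the 87 scaffolds, 18.6% of the windows shared by F1 and F2 were also listed in F3, beside 11.9% of all F1 and 11.4% of all F2 windows. Of the windows shared by F1 and F3, 20.3% were also listed in F2, beside 12.98% of all F1 and 13.7% of all F3 windows. Of the windows shared by F2 and F3, 20.8% were also listed in F1, beside 12.73% of all F2 and 14.02% of all F3 windows. Windows that were measured but not listed are not in the tables, so a share of measured windows could not be given, and the part of coverage in these shares was not tested.

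The share of windows found in another table fell with displacement. Of all 53723 F1 windows, 9.87% (5304) stood at the same position in the F2 table. That total includes the 12866 F1 windows on scaffolds without F2 windows, and on the shared scaffolds the share was 12.98%. Displaced shares are given per direction, as the mean of upstream and downstream, so the share with a window on either side is larger. At 50 bases, where windows overlap over 50 bases, the share was 5.40% (2888 windows downstream and 2916 upstream). At 100 bases, where windows only abut, it was 2.49%. At 500 bases the share was 0.263% and at 1000 bases 0.157%. For F1 in the F3 table the same values ran from 12.2% through 6.50% and 2.81% to 0.426% and 0.245%. For F2 in the F3 table they ran from 11.4% through 6.08% and 2.744% to 0.313% and 0.188%. Neighbouring windows hold some of the same CpGs and the same reads, so that overlapping windows are not separate observations. Capture was aimed at short stretches, such as 550 bases around a transcription start. Displacement within a single table was not compared, and the part of capture in the fall was not tested.

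**Figure D2:**
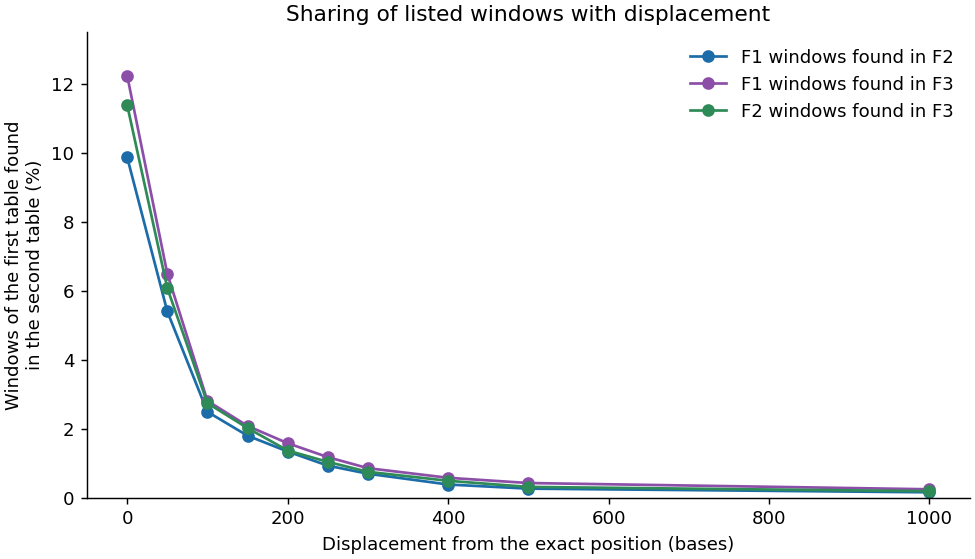
Percentage of the windows of one table found in another (y axis) when the position is displaced by 0 to 1000 bases (x axis, mean of both directions), with 1 line for each pair of generations. The shares fall from between 9.87% and 12.2% at the exact position to below 0.5% at 500 bases. They are of all windows of the first table, including F1 windows on scaffolds without F2 windows.

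Merging the overlapping recurrent windows gave 13123 regions covering 1388600 bases. Most of them, 11674, consisted of 1 window, 1381 of 2, 59 of 3 and 9 of 4 windows, and a region of 4 windows was 250 bases long. Of the 1449 regions with at least 2 windows, 580 (40.0%) joined windows listed in different sets of generations, so that the set of a window often changed over 50 bases. The median distance between neighbouring regions of a scaffold was 96950 bases, and 5.63% of these distances were at most 1000 bases.

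Among the 9 longest regions, 7 joined windows of different sets of generations and 2 held windows of 1 set. On scaffold 65, from 4987351 to 4987600, all 4 windows were listed in F1 and F2 and 2 of them also in F3, in an intergenic stretch 8787 bases downstream of the nearest annotated start. On scaffold 33, from 3634901 to 3635150, in intron 42 of a gene model with 65 introns, 4 windows were listed in F2, 3 in F1 and 2 in F3, with 1 window in all 3. On scaffold 0, from 85532301 to 85532550, in intron 6 of 12, the 4 windows were listed in F2, 3 of them in F3 and 1 in F1. On scaffold 25, from 1709351 to 1709600, all 4 windows were listed in F1 and F3 and none in F2, on a scaffold with 794 F2 windows. On scaffold 123, from 1897851 to 1898100, the 4 windows had the same set, on a scaffold with no F2 windows. That stretch held 2 CpGs of the F1 and 8 CpGs of the F3 single-CpG table.

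By Homer's annotation, which assigns each window to a feature class, most recurrent windows lay between genes. Intergenic windows numbered 8811 (60.1%), introns 4013 (27.4%), promoters around a transcription start 704 (4.81%), exons 343 (2.34%) and transcription end sites 333 (2.27%), and 445 windows (3.04%) had no annotation. None was annotated to a UTR, where 7 (3′ UTR) and 4 (5′ UTR) of the windows listed in 1 table lay. Windows of a single table were divided in nearly the same way, with 59.9% intergenic, 26.96% intronic, 4.38% at promoters, 2.55% in exons and 1.95% at transcription end sites. The 988 windows in all 3 tables comprised 607 intergenic, 281 intronic, 43 promoter, 28 exonic and 29 transcription end windows.

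Within the gene models, too, recurrent windows lay where the single-table windows lay. Of 4013 intronic windows, 917 (22.9%) were in the first intron, which often carries regulatory elements, against 22.3% of the single-table windows. Of 343 exonic windows, 137 (39.9%) were in the first exon, against 39.2%, and 67 (19.5%) lay in gene models of a single exon, against 18.6%. Upstream positions made up 45.9% of the recurrent and 46.2% of the single-table windows with an annotated start.

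On the shared scaffolds the share of listed windows that were recurrent lay between 19.2% and 26.97% over the 5 annotated classes. For promoters it was 24.01% in F1, 22.15% in F2 and 26.3% in F3, and for intergenic windows 22.7%, 21.7% and 24.5%. For introns the shares were 21.8% in F1, 21.6% in F2 and 25.2% in F3. Transcription end sites had the highest share in F2 and F3, with 26.38% and 26.97%, and 23.95% in F1. Exons had the lowest share in F1 and F2, with 21.2% and 19.2%, but not in F3, with 25.8%.

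The recurrent share was highest next to transcription starts. Within 250 bases of a start, 465 of 1821 F1 windows (25.5%), 457 of 1863 F2 windows (24.5%) and 421 of 1504 F3 windows (27.99%) on the shared scaffolds were recurrent. In the next class, up to 1000 bases, the shares were 21.9% in F1, 21.8% in F2 and 24.1% in F3, and beyond 100000 bases they were 22.1%, 21.4% and 23.6%. From 1001 to 5000 bases they were 23.19% in F1, 23.04% in F2 and 27.26% in F3. In each table the share within 250 bases was above that of every farther class, though in F3 only slightly above 27.26%. A recurrent window counts in every table that lists it, so the 3 tables are not separate observations of this. The distances as a whole were alike, with a median of 34425 bases for recurrent windows, 32694 bases for windows in all 3 tables and 34632.5 bases for windows of a single table.

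**Figure D3:**
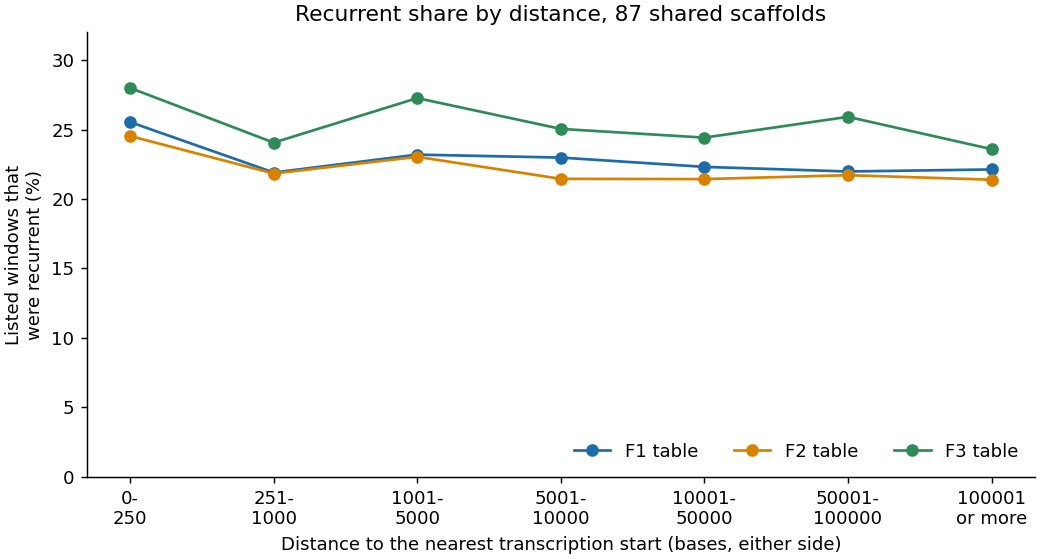
Percentage of listed windows that were recurrent (y axis) by distance to the nearest annotated transcription start (x axis, 7 classes in bases), for each table on the 87 scaffolds present in all 3. The first class stands highest in each table, at 25.5%, 24.5% and 27.99%, and the others lie between 21.4% and 27.3%.

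Over all scaffolds, 725 recurrent windows lay within 250 bases of a start, 5.10% of those annotated, against 4.23% of the single-table windows. Of these, 268 were listed in F1 and F3 alone, 225 in F1 and F2 alone, 181 in F2 and F3 alone and 51 in all 3. The 704 promoter windows formed 633 regions at 610 gene models.

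The 43 promoter windows listed in all 3 generations lay at 42 gene models, from 893 bases upstream to 405 bases downstream of the start. By the annotated distance 35 of them were upstream of the start, and 25 were within 250 bases. That distance is 1 value for a window of 100 bases, so a window this near a start may span it. The smallest distance was 9 bases downstream of a start, on scaffold 11, from 16062801 to 16062900. Distances of 26 bases upstream on scaffold 35, from 677201 to 677300, and 41 bases upstream on scaffold 0, from 18764401 to 18764500, followed. The window on scaffold 0 belonged to ENSCPOG00000016643 and held listed single CpGs in every generation, 1 in F1, 3 in F2 and 4 in F3, with 1 position in all 3. On scaffold 16, from 18657451 to 18657550 and 99 bases upstream, the same single CpG was listed in all 3 generations. On scaffold 6, from 3016401 to 3016500 and 301 bases upstream, 2 CpGs were listed in F1, 2 in F2 and 1 in F3, none at a position common to the 3. In 34 of the 43 no CpG was listed in any single-CpG table, though CpGs that differed may still lie there.

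The recurrent share was higher among windows with listed neighbours. On the shared scaffolds, of F1 windows without an overlapping neighbour in the same table, 21.4% were recurrent, with 1 such neighbour 24.3% and with neighbours on both sides 31.8%. The F2 shares were 20.6%, 23.9% and 29.4%, and the F3 shares 23.7%, 26.9% and 34.6%. The order was the same in each table, although windows flanked on both sides numbered only 614 in F1, 620 in F2 and 520 in F3. Because a recurrent window counts in every table that lists it, the tables are not separate observations of this order. Overlapping neighbours also hold some of the same CpGs and reads, and were listed by the same floor on the difference.

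Windows that held a listed single CpG also had a higher recurrent share. The single-CpG tables also hold only positions with a difference of at least 2 points, from the same reads. Whether either kind of table passed a further filter is not known. No CpG of their own generation was listed in 49418 of 53723 F1, 38734 of 41660 F2 and 42867 of 46788 F3 windows. Yet a window's difference is computed from the CpGs within it. A window without a listed CpG may therefore still hold CpGs that differed. On the shared scaffolds, 34.6% of F1 windows with 1 listed CpG of their own generation were recurrent, against 21.6% of those with none. In F2 the shares were 33.2% and 20.9%, and in F3 34.4% and 24.1%. A further listed CpG did not raise the share in every table, which was 35.6% in F1, 32.7% in F2 and 33.1% in F3 with 2 or more. Most recurrent windows nevertheless held none: over all scaffolds a listed CpG was found in 11.0% of the recurrent F1 windows, 10.7% of the F2 and 10.9% of the F3 windows, beside 7.26%, 6.01% and 7.66% of the single-table windows. These last shares mix scaffolds that the lists cover unlike. Listed CpGs lay on 1201 scaffolds in F1, 87 in F2 and 403 in F3, and listed windows on 910, 87 and 970. The depth of the windows and CpGs is unknown from the tables, and its part in these shares was not tested.

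**Figure D4:**
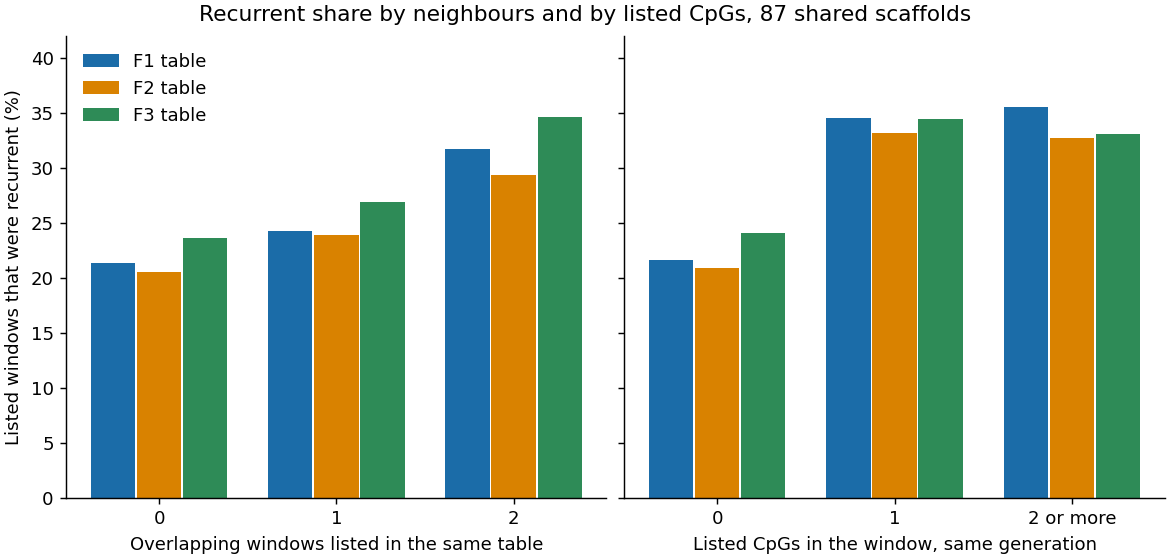
Percentage of listed windows that were recurrent (y axis) by the number of overlapping windows in the same table (left) and by the number of listed single CpGs in the window (right), for each table on the 87 shared scaffolds. The left bars rise from between 20.6% and 23.7% to between 29.4% and 34.6%, and the right bars stand between 20.9% and 24.1% without a listed CpG and between 32.7% and 35.6% with 1 or more.

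A window listed in all 3 generations seldom held a single CpG that was itself listed in all 3. Of the 988 windows, 709 held no listed CpG in any table, 195 held one in 1 generation, 49 in 2 and 35 in each of the 3. Since most windows of every generation held no listed CpG, the 709 may still hold CpGs that differed. In 25 windows at least 1 CpG position was the same in the 3 tables. All recurrent windows together covered 4321 listed CpGs, of which 3378 stood in 1 CpG table, 754 in 2 and 189 in 3. The share in 2 or 3 tables was 21.8%, beside 18.7% of all 170595 listed CpGs.

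Among windows in all 3 tables, those with the most listed CpGs were spread over classes. The first, on scaffold 41 from 16927051 to 16927150, was intergenic and 22330 bases downstream of the start of ENSCPOG00000024530. It held 5 listed CpGs in F1, 6 in F2 and 7 in F3, with 2 positions common to the 3. An intergenic window on scaffold 0, from 885151 to 885250, held 8 in F1, 5 in F2 and 3 in F3, with 1 position common. On scaffold 10, a transcription end window from 29859051 to 29859150 held 3 in F1, 3 in F2 and 1 in F3. On scaffold 0, a window in intron 2 of 7, from 28228251 to 28228350, held 2 in F1, 3 in F2 and 2 in F3, and each of the latter pair had 1 CpG position common to the 3 tables. A window on scaffold 0 from 85532151 to 85532250, in the intron whose 250-base region is described above, held 1, 2 and 3 CpGs with no position in common.

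Recurrent windows were spread over many genes. At genes each window is counted once over the 3 tables, so the shares here stand beside 11.6% of all listed windows. They are not comparable with the shares per table above. Homer's nearest gene was one of 18746 gene models over all listed windows, and 7496 of these (40.0%) had a recurrent window nearest to them. Of the 7496, 4304 (57.4%) had 1 recurrent window, 419 had at least 5 and 55 at least 10. The number followed the number of windows listed at the gene: recurrent windows made up 10.6% of listed windows at genes with 1 to 4 of them, 12.01% at genes with 10 to 19 and 12.3% at genes with 50 or more. A window in all 3 tables lay nearest to 889 genes, and 79 of these had at least 2, 13 at least 3 and 1 gene had 6. Nearest by distance is not always the gene that holds the window, for in 1404 of 5393 recurrent windows inside or at the edge of a gene model the class named another gene.

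The gene with the most recurrent windows was ENSCPOG00000007770 on scaffold 7, with 43 of 253 listed windows (16.996%) between 25798851 and 26564000, a stretch of 765 kb. Of these, 37 were intronic, and 16 were listed in F1 and F3 alone, 13 in F1 and F2 alone, 12 in F2 and F3 alone and 2 in all 3. ENSCPOG00000025834 on scaffold 23 had the most windows in all 3 tables, 6 of its 18 recurrent windows, all intergenic and between 23747751 and 24805150. Its other windows were 8 in F2 and F3, 3 in F1 and F3 and 1 in F1 and F2. The locus on scaffold 41 with ENSCPOG00000024530 had 20 recurrent of 85 listed windows (23.5%) within 62.9 kb, 5 of them in all 3 tables. A locus on scaffold 17 with 255 listed windows, from 533751 to 790550, had 29 recurrent windows (11.4%) and none in all 3. These shares too count each window once over the 3 tables, where 11.6% of all listed windows were recurrent. These genes were ranked by recurrent windows, so that their numbers are a description of the loci.

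**Figure D5:**
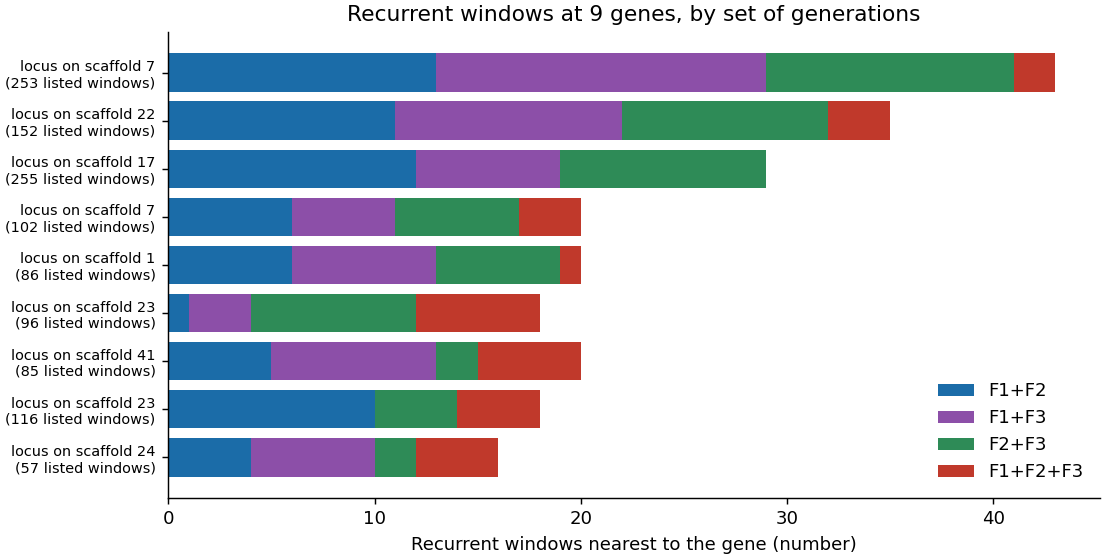
Number of recurrent windows (x axis) nearest to each of 9 genes, ranked by recurrent windows or by windows in all 3 tables (y axis, named by scaffold, with the number of listed windows), and coloured by set of generations. The first locus on scaffold 7 holds 43 windows and only 2 of them in all 3 tables, whereas the upper locus on scaffold 23 holds 18 and 6 of them in all 3.

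Across the assembly the recurrent windows lay on 510 scaffolds and those in all 3 tables on 85. The 10 scaffolds with the most held 29.1% of all recurrent windows. Over the 38 scaffolds with at least 300 windows in every table, the recurrent share ranged from 19.9% on scaffold 28 to 27.96% on scaffold 33 in F1, with a median of 22.8%. In F2 it ranged from 19.1% on scaffold 42 to 27.4% on scaffold 2, with a median of 21.7%, and in F3 from 20.5% on scaffold 42 to 29.98% on scaffold 25, with a median of 25.2%. Scaffold 42 was thus the lowest in both F2 and F3, whereas its F1 share, 22.3%, was near the F1 median. Windows shared by F2 and F3 count in both of their shares, so these are not separate observations.

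The gene models of the windows carry identifiers and the RNA tables carry symbols, and no table used here pairs them, so the RNA of the genes at recurrent windows was not analysed here. The RNA libraries, 36 with 13507449 to 19767033 counted reads, served as a check of the tissue. The summed level of 10 neuron genes chosen for the hippocampus lay between 7823 and 11885 counts per 1000000 reads (CPM), and that of 5 striatal genes between 75.6 and 115 CPM. Most of the former sum came from CAMK2A (median 5601 CPM), SLC17A7 (2006) and GRIA1 (1152), whereas PROX1 had 108. No list of neocortical genes was used, so the check did not tell hippocampus from neocortex. The summed level of 8 astrocyte genes lay between 9103 and 10123 CPM in the 6 F3 controls. In the 7 F3 sGC animals it lay between 10375 and 12085 CPM, without overlap, while F1 and F2 groups overlapped. Most of the astrocyte sum came from SLC1A2 (median 3969 CPM over all libraries), SLC1A3 (2791) and GLUL (1604), whereas GFAP had 489. The other 9 lists overlapped between groups in every generation. Fewer cells of a type and less RNA per cell cannot be told apart in such tissue, and the part of cell composition in the listed windows was not tested.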

How the data were processed

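Hippocampal bisulfite capture libraries were trimmed with Trimmomatic 0.32, aligned to cavPor3 with bsmap 2.74, freed of duplicates with Picard 1.93 and compared by the authors with methylKit 1.4.0 in R 3.2.3, requiring 10 reads per CpG, over windows of 100 bases placed 50 bases apart and over single CpGs. Positions were annotated by the authors with Homer 4.6. The deposited methylation tables hold 1 comparison per generation, with no value per animal, so that no replicate error or depth can be attached to a window. Their columns of methylation difference, p-value and q-value, and the fold changes, p-values and related scores of the RNA tables, hold the authors' own comparisons and were not used, except that the difference column was read to test the floor of 2 points, which all tables met. Read counts per gene were deposited by the authors without normalization, after TopHat2 alignment.

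Windows were matched by scaffold and start after subtracting 1 from the F2 and F3 starts, since these tables begin a window 1 base later, and coordinates are given as in the F1 table. Class, distance and nearest gene were taken from the first table listing a window, and none differed between tables. Single CpGs were matched by the end column in F1 and the start column in F2 and F3. The F3 table of single CpGs holds 74064 lines for 70002 positions, each position counted once. RNA levels were counts per 1000000 reads of the library total (CPM), and marker sums used genes present in all 3 RNA tables. None of the 91 pairs of libraries within a group had identical counts, and the lowest chi-square of a pair was 2.11 per degree of freedom. Windows were named by the number of listed CpGs, by length of region or by nearness to a start, and genes by the number of recurrent windows or of windows in all 3 tables. The windows to be studied, the marker lists and these rules were chosen with earlier results of these data known. Matching was tested on simulated tables. Python 3.11.15, numpy 2.4.6 and matplotlib 3.10.9 were used. Alternatives were a match by overlap, uncorrected starts, merged regions, the class from the other table and the shared scaffolds alone. Sequences of the windows are not shown, since no genome of this build was used here.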

Additional observations from a re-analysis of the deposited data

Results flagged for a closer look

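The summed levels of 10 lists of marker genes were compared within each of the 6 groups of RNA libraries, 60 sets in all, in CPM (counts per 1000000 reads), and in 4 of them 1 library stood apart from the rest of its group by Dixon's criterion, where chance alone would give about 3 (1 in 20). The oligodendrocyte sum was 1821 CPM in F1 sGC replicate 1, with the nearest other library at 1327. The microglial sum was 266 CPM in F3 sGC replicate 4, with the nearest other library at 235. The choroid plexus sum, over 2 genes, was 42.2 CPM in F1 control replicate 5, with the nearest other library at 23.2. The blood sum, over 1 gene, was 3.40 CPM in F2 sGC replicate 3, with the nearest other library at 1.80. No count of windows rests on these libraries, since the RNA data were not used to find or describe the windows.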

How the results depend on the processing

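The number of recurrent windows depends on the rule for a match. With windows overlapping by at least 50 bases taken as shared, 32210 windows were recurrent and 4050 of them were shared by all 3 tables. That set held all 14649 windows of the exact match and 17561 more. With the starts as deposited, 4744 windows matched, all between F2 and F3, and 0 stood in all 3 tables, because the F1 starts are then 1 base off. Merged into regions, the counts were 13123 and 957. On the scaffolds present in all 3 tables, an alternative chosen after seeing the data, they were 12935 and 988. The class from the other table left the 704 promoter windows as they were, which was bound to be so because no class differed between tables. The planned comparisons of RNA at the genes of these windows were not run, because identifiers and symbols could not be paired: the likelihood ratio test, DESeq2, its size factors, no filter, a joint fit, the gene subsets, and the fits without single libraries. No paired analysis was possible because the windows come from no test run here and their tables carry no replicate. Depth per window is unknown, so no window could be weighed by its coverage.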
